A study of Homo sapiens with 6 samples.

Results

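The genes described here are 10 genes of mitophagy and autophagy, BNIP3, BNIP3L, FUNDC1, PINK1, SQSTM1, MAP1LC3B, GABARAPL1, ULK1, WIPI1 and ATG14, taken by symbol from the 27754 genes counted by RNA sequencing. All 10 were found and all 10 passed the filter on low counts. The libraries came from T47D, an established line of luminal-like breast cancer cells, cultured as adherent cells in RPMI with serum. There were 3 libraries of cells kept in normoxia (20% O2) and 3 of cells kept for 48 h in hypoxia, for which the labels give 0.5% O2 and the study's text a higher level. The labels name no other treatment, so the groups were compared for O2 alone. RNA was read from whole cultures, in which fewer cells of a type and less RNA per cell cannot be told apart. Libraries carried replicate numbers 1 to 3 within a condition. The labels do not tell whether these came from separate cultures, while the study describes its replicates as separate experiments and its hypoxia and normoxia samples as paired. The p-values below measure the spread between these libraries. The comparison of hypoxia with normoxia asked how the transcripts of these genes changed when T47D cells lacked O2.

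Autophagy is the process by which a double membrane closes around cytoplasm and delivers it to the lysosome, and mitophagy is autophagy of mitochondria. The kinase ULK1 starts the process, a lipid kinase complex with ATG14 marks the growing membrane with the lipid PI3P, WIPI1 binds that lipid, and small ubiquitin-like proteins of the ATG8 family (MAP1LC3B, known as LC3B, and GABARAPL1) are attached to the membrane. Cargo is tied to ATG8 proteins by receptors such as SQSTM1 (p62). Mitochondria are recognised either by receptors in their own outer membrane (BNIP3, BNIP3L and FUNDC1) or by the kinase PINK1, which marks damaged mitochondria with phosphorylated ubiquitin. BNIP3 and BNIP3L are textbook targets of the hypoxia-inducible factors (HIFs).

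HIFs bind DNA at a short core, ACGTG or GCGTG, so the promoters of the 10 genes were read for these letters. RefSeq promoter windows (GRCh38.p14, 250 bases before to 50 after each annotated start) were given for 8 of the 10 genes, and none for BNIP3L and PINK1. Of 35116 windows of this length, 48.4% held at least 1 match to either core on either strand. BNIP3 held 6 match positions, and 0.923% of all windows held as many. MAP1LC3B held 4 (4.4% of windows held as many), ATG14 held 3 (10.1%) and ULK1 held 1. In FUNDC1, GABARAPL1, WIPI1 and the 3 windows of SQSTM1 these letters were not found. A further motif, TGACNNNGC (a core bound by the stress factor NFE2L2), was in 13.3% of all windows and, among the 8 genes with a window, only in that of MAP1LC3B, once. The BNIP3 window was also rich in G and C, which made up 80.7% of its bases. The 30 bases with most matches in each gene are shown because these letters set BNIP3 apart from the other windows by count. Capitals mark every match on either strand, each sequence runs 5′ to 3′ on the strand of the gene, and coordinates come from a match to GRCh37.
BNIP3 (reverse strand, chr10:133795545-133795574): cgcgCACGCgccgCACGTGccaCACGCacc
MAP1LC3B (forward strand, chr16:87425775-87425804): CACGCgcacacacctgctccgccccCACGC
ULK1 (forward strand, chr12:132379089-132379118): cccgtctgttcgtCACGCccggctctgccg
ATG14 (reverse strand, chr14:55878552-55878581): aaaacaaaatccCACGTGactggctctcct
In BNIP3 and ATG14, CACGTG is its own reverse complement, so it counts as a match on each strand. CACGTG was found in 7.26% of all windows. The last base of the BNIP3 sequence lies 28 bases upstream of the first counted exon base, and most of the ATG14 sequence lies within the first counted exon. A match is a description of the letters and not evidence of binding.

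Total counts ranged from 32989104 to 89883409 per library, and each of the 10 genes had between 427 and 25443 counts in every library. Replicate 3 of hypoxia was the deepest library, and replicate 3 of both conditions stood apart from replicates 1 and 2 (chi-square per degree of freedom over genes of 6.38 to 8.47 between replicates 1 and 2, and of 36.6 to 72.6 against replicate 3). VIM, a mesenchymal marker, had 7 and 12 counts in the first and second normoxia libraries but 395 in the third, and 35, 35 and 1001 counts in the same order in hypoxia. Scaled to counts-per-million (CPM), VIM was at 12.8 in normoxia replicate 3 and 10.95 in hypoxia replicate 3. Its same-numbered pairs differed by 2.29, 1.57 and -0.22 on the log2 scale. The part of VIM in the results below was not tested. The summed level of 8 luminal markers was 10854 to 14044 CPM in normoxia and 7210 to 9447 CPM in hypoxia. Most of it was KRT8 and KRT18 (means of 5801 and 2378 CPM in normoxia), which were not called. EPCAM and CDH1 were not called either. ESR1 (log2-fold change of -1.86), PGR (-2.93), GATA3 (-0.74) and FOXA1 (-0.55) were called lower. With the replicate number in the fit, KRT8 and KRT18 were also lower and CDH1 was higher. The summed level of 8 mesenchymal or basal-like markers was 188 to 202 CPM in normoxia and 206 to 276 CPM in hypoxia. Most of the latter sum was LGALS1 (181 to 247 CPM). CAV1 (1, 0 and 39 counts in normoxia, 15, 9 and 198 in hypoxia), CAV2 and MSN stood out in replicate 3 as VIM did, and AXL was called higher in hypoxia (log2-fold change of 1.97). The summed level of 4 leukocyte markers was 2.04 to 2.499 CPM in normoxia against 8.52 to 10.5 CPM in hypoxia, most of it CD68. That of 3 endothelial markers was at most 0.514 CPM. That of 4 fibroblast markers was 77.3 to 99.5 CPM over all libraries, nearly all of it COL1A1. PDGFRB had 0, 0 and 3 counts in normoxia and 14, 18 and 28 in hypoxia. It passed the filter on low counts through its hypoxia libraries alone, so only a rise could be called, and it was called higher. No marker was at 0 in all libraries, but PTPRC (leukocytes) had at most 5 counts, PECAM1 (endothelium) at most 5 and DCN (fibroblasts) at most 1 in any library. The hypoxia-response gene CA9 had 6 to 37 counts in the normoxia libraries and 783 to 2880 in the hypoxia libraries.

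Of the 10 genes, 6 rose in hypoxia, 2 fell and 2 were not called at an adjusted p of 0.05 (edgeR, quasi-likelihood). BNIP3 and BNIP3L rose most, PINK1, MAP1LC3B and ATG14 each rose by somewhat less than a doubling, and SQSTM1 rose by less. WIPI1 and FUNDC1 fell. Among all 15657 tested genes, 59.5% were called, 30.4% higher and 29.1% lower, so the 8 calls among 10 genes stand against a background in which most genes were called. With upper-quartile scaling, which shifted the median over all genes upward by 0.16 (log2), 64.5% of the called genes were higher in place of 51.1%, and 8 of the 10 genes were higher and 1 lower. A block for the replicate number gave 7 higher and 2 lower among the 10 genes and calls in 71.8% of all tested genes. Without both libraries numbered 3, the 10 genes gave 8 calls upward and 2 downward. Calls over all 15803 genes tested in that setting also rose, to 5751 upward and 5506 downward, from 4765 and 4551 with all libraries. The median log2-fold change was 0.59 over the 10 genes and 0.03 over all tested genes. The groups did not overlap in CPM for 9 of the 10 genes, and for 67.3% of all tested genes.

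**Figure D1:**
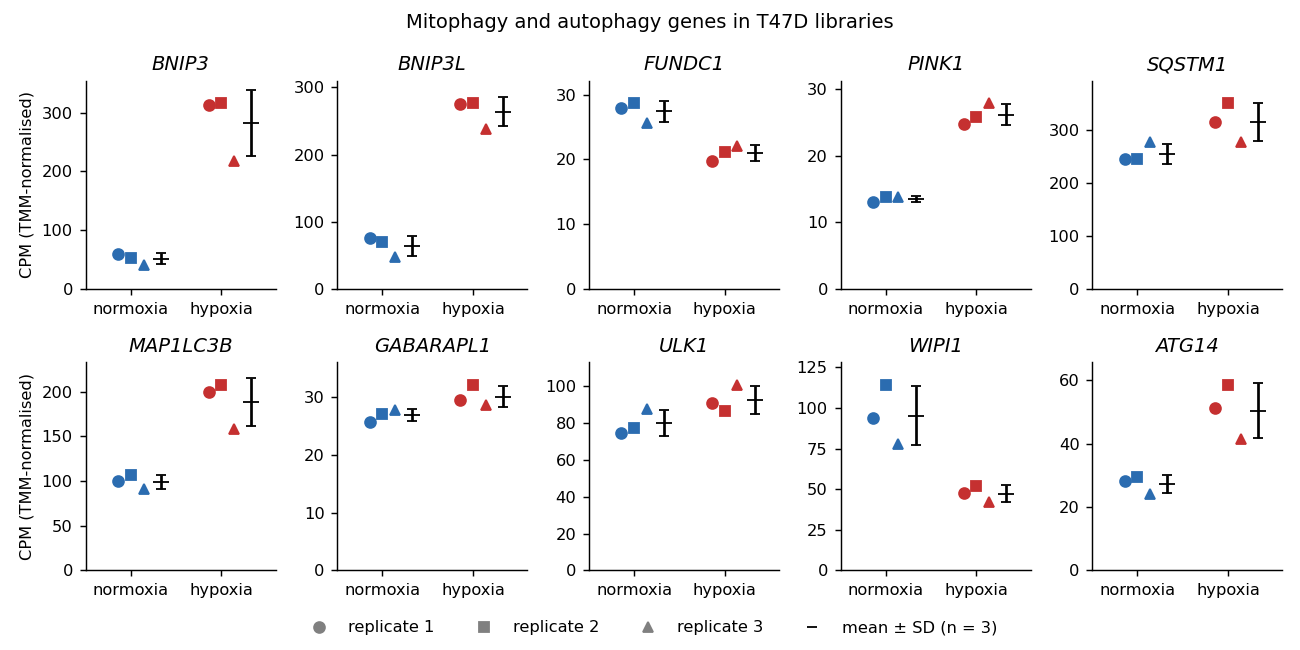
TMM-normalised CPM of each gene in each library, with normoxia in blue, hypoxia in red, a symbol for each replicate number and the mean ± SD of 3 libraries as a black bar. BNIP3 sits between 41.0 and 59.4 CPM in normoxia and between 217 and 316 CPM in hypoxia, whereas for ULK1 the groups overlap.

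BNIP3 is a receptor of the outer mitochondrial membrane that binds ATG8 proteins directly. It lies on chromosome 10 (133781187 to 133795517 in GRCh37, reverse strand). It was at 59.4, 53.0 and 41.0 CPM in normoxia replicates 1, 2 and 3, and at 313, 316 and 217 CPM in hypoxia replicates 1, 2 and 3. All hypoxia libraries were above all normoxia libraries, and replicate 3 was the lowest library of both conditions. The mean rose 5.50-fold, from 51.1 ± 9.37 to 282 ± 56.2 CPM (SD, n = 3). The log2-fold change was thus 2.46, with a standard error (SE) of 0.19 and an adjusted p of 7.38e-05 in edgeR. Of all tested genes, 4.38% had a larger change in either direction. The same-numbered pairs of libraries differed by 2.40, 2.58 and 2.40 on the log2 scale. The pseudogene BNIP3P1, which is not among the counted genes, matches 1568 bases of the BNIP3 exons at 97.8% identity, and how reads that fit both were treated is not given in the sources used here.

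BNIP3L, also called NIX, is a paralogue of BNIP3 in the same membrane, known for the removal of mitochondria from maturing red blood cells. It lies on chromosome 8 (26240523 to 26270645, forward strand). Its level was 75.4, 69.4 and 47.4 CPM in the normoxia libraries and 276, 276 and 239 CPM in the hypoxia libraries. Again replicate 3 was the lowest of each condition, and the groups did not overlap. From 64.1 ± 14.8 to 264 ± 21.7 CPM (SD, n = 3), it rose 4.11-fold, or by 2.04 on the log2 scale (SE 0.17, adjusted p = 9.40e-05 in edgeR). Its pairs differed by 1.87, 1.99 and 2.33.

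FUNDC1, a mitophagy receptor on chromosome X (44382885 to 44402221, reverse strand) whose binding to ATG8 proteins is controlled by phosphorylation, moved the other way. It was at 27.9, 28.7 and 25.7 CPM in normoxia and at 19.7, 21.2 and 22.1 CPM in hypoxia. Every hypoxia library was below every normoxia library, and the gap within a pair was smallest for the libraries numbered 3. The mean of 27.4 ± 1.58 CPM fell to 21.0 ± 1.19 CPM (SD, n = 3), which is -0.39 on the log2 scale (SE 0.09, adjusted p = 0.00757 in edgeR). With upper-quartile scaling this call was lost (log2-fold change of -0.23, adjusted p = 0.0744).

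The receptors were also set beside each other per length, as CPM divided by the kilobases of counted exon (RPKM). In a pool of 7 mitophagy receptors (BNIP3, BNIP3L, FUNDC1, BCL2L13, FKBP8, PHB2 and NLRX1), which was put together after the values were seen, the summed level was 257 ± 7.50 RPKM in normoxia and 432 ± 14.3 RPKM in hypoxia (SD, n = 3, as for the shares that follow). BNIP3 made up 12.2% ± 2.44 of that pool in normoxia and 39.8% ± 6.83 in hypoxia. BNIP3L went from 6.91% ± 1.71 to 16.8% ± 0.861. FKBP8, which held the largest share in normoxia (35.7% ± 4.87), was at 21.0% ± 6.29 in hypoxia, while its own CPM did not pass the test (-0.03 on the log2 scale, adjusted p = 0.917).

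PINK1 is the kinase that accumulates on depolarised mitochondria, and lies on chromosome 1 (20959948 to 20978004, forward strand). By its mean it was the least abundant of the 10 genes per length in both conditions, overlapping ATG14. Its values were 13.0, 13.8 and 13.8 CPM in normoxia and 24.7, 25.8 and 27.8 CPM in hypoxia, the tightest normoxia replicates among the 10 genes (coefficient of variation of 3.55%). It rose 1.93-fold, or by 0.95 on the log2 scale (SE 0.09, adjusted p = 1.74e-04), and the pairs differed by 0.93, 0.90 and 1.01. The antisense gene PINK1-AS covers 58.1% of the counted PINK1 exon bases. The raw counts of PINK1-AS were 145, 150 and 97 in normoxia and 247, 166 and 328 in hypoxia. They are not scaled for depth, and the libraries numbered 3 held 32989104 (normoxia) and 89883409 (hypoxia) counts in all. The strand setting of the counting is not given in the sources used here, so reads of the pair may not be separable.

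SQSTM1 encodes the cargo receptor p62, which binds ubiquitin and ATG8 proteins and is itself degraded by autophagy. It lies on chromosome 5 (179233388 to 179265077, forward strand). It was at 245.0, 244.9 and 277 CPM in normoxia and at 316, 351 and 278 CPM in hypoxia. The groups were separated only by the gap between the libraries numbered 3, which differed by 0.0053 on the log2 scale, whereas the pairs numbered 1 and 2 differed by 0.37 and 0.52. The mean of 256 ± 18.7 CPM in normoxia and 315 ± 36.3 CPM in hypoxia (SD, n = 3) differed by 0.30 on the log2 scale (SE 0.10, adjusted p = 0.0347 in edgeR). This call was lost without normoxia replicate 1 (0.26, adjusted p = 0.142), normoxia replicate 2 (0.25, adjusted p = 0.129), hypoxia replicate 1 (0.30, adjusted p = 0.0937) or hypoxia replicate 2 (0.21, adjusted p = 0.129). Without both libraries numbered 3, the log2-fold change was 0.45 (adjusted p = 1.95e-05). The opposite-strand gene MRNIP shares 18.6% of the counted SQSTM1 exon bases.

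**Figure D2:**
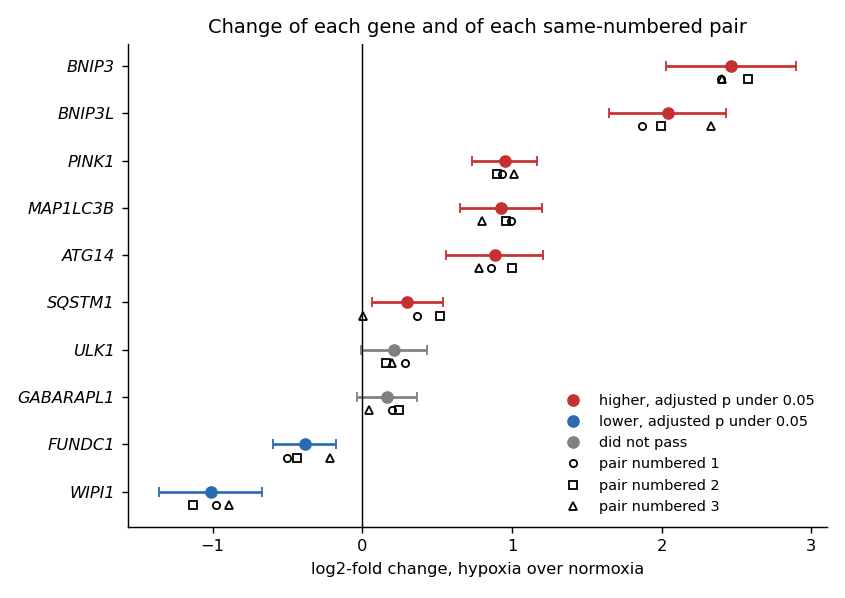
Log2-fold change of each gene (hypoxia over normoxia) with its 95% confidence interval from edgeR's quasi-likelihood fit, coloured by call, and the log2 difference of each same-numbered pair of libraries as open symbols below. BNIP3 (2.46) and BNIP3L (2.04) lie far to the right, WIPI1 (-1.01) lies farthest to the left, and the intervals of ULK1 and GABARAPL1 reach below 0.

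MAP1LC3B encodes LC3B, the ATG8 protein most often used as a marker of autophagosomes. It lies on chromosome 16 (87425801 to 87438380, forward strand). Its levels were 100.2, 107 and 90.8 CPM in normoxia and 199, 208 and 158 CPM in hypoxia. Replicate 3 was again the lowest library of each condition. It rose 1.90-fold, or by 0.92 on the log2 scale (SE 0.12, adjusted p = 4.89e-04). Its near-copy MAP1LC3B2 matches 746 exon bases at 97.9% identity but had only 9 to 84 counts per library, against 2812 to 14454 for MAP1LC3B.

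GABARAPL1 encodes an ATG8 protein of the GABARAP subfamily (chromosome 12, 10365489 to 10375724, forward strand). It was at 25.7, 27.1 and 27.8 CPM in normoxia and at 29.5, 32.1 and 28.6 CPM in hypoxia. The hypoxia libraries lay just above the normoxia libraries, but the log2-fold change of 0.16 (95% interval from -0.03 to 0.36, adjusted p = 0.133) did not pass the test. Without both libraries numbered 3, it was 0.23 (adjusted p = 0.0227), and with upper-quartile scaling 0.32 (adjusted p = 0.0160).

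Per length, the 7 genes of the ATG8 family summed to 346 ± 17.1 RPKM in normoxia and 382 ± 11.3 RPKM in hypoxia. GABARAP held the largest share of this sum in both conditions, 56.6% ± 0.838 and 52.1% ± 3.05. MAP1LC3B went from 12.6% ± 1.502 to 21.5% ± 3.06, and GABARAPL2 from 26.4% ± 1.16 to 21.1% ± 0.592. GABARAPL1 was at 4.16% ± 0.0901 and 4.21% ± 0.197. These shares carry no test, and the pool was put together after the values were seen.

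ULK1 encodes the kinase that starts autophagy and is inhibited by mTOR when nutrients are plentiful (chromosome 12, 132379279 to 132407707, forward strand). It was at 74.5, 77.2 and 87.7 CPM in normoxia and at 90.5, 86.1 and 101 CPM in hypoxia. The groups overlapped, since replicate 3 of normoxia was above replicate 2 of hypoxia. The log2-fold change of 0.21 (95% interval from -0.01 to 0.43, adjusted p = 0.0872) did not pass the test. Replicate 3 was the highest library of both conditions, and when that number was a block the same change passed (0.21, adjusted p = 0.00815). It also passed without normoxia replicate 3 (0.28, adjusted p = 0.0331), without both libraries numbered 3 (0.23, adjusted p = 0.00544) and with upper-quartile scaling (0.37, adjusted p = 0.00572).

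ATG14 is the subunit that directs the lipid kinase complex to sites of autophagosome formation (chromosome 14, 55833109 to 55878576, reverse strand). It was at 28.3, 29.4 and 24.2 CPM in normoxia and at 51.2, 58.6 and 41.4 CPM in hypoxia. Replicate 3 was the lowest of each condition, and the groups did not overlap. It rose 1.84-fold, or by 0.88 on the log2 scale (SE 0.14, adjusted p = 0.00125), with pairs at 0.86, 1.00 and 0.78. Transcripts of FBXO34 in the GENCODE annotation match 984 bases of its counted exons, but the exons counted for FBXO34 itself share no base with them.

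WIPI1 binds PI3P on the forming autophagosome (chromosome 17, 66417422 to 66453665, reverse strand). Its level was 94.0, 114 and 77.8 CPM in normoxia and 47.7, 52.2 and 42.0 CPM in hypoxia. In every pair the hypoxia library was at the lower level, by 0.98, 1.13 and 0.89 on the log2 scale. The mean of 95.3 ± 18.3 CPM in normoxia fell to 47.3 ± 5.14 CPM in hypoxia (SD, n = 3), which is -1.01 on the log2 scale (SE 0.15, adjusted p = 8.84e-04 in edgeR). Transcripts of ARSG in the GENCODE annotation share 540 bases of its counted exons, but the exons counted for ARSG itself share no base with them. Of all tested genes, 4.91% fell by at least 1 on the log2 scale and passed the test. WIPI1 kept its sign and its call in all 14 alternative settings, as did BNIP3, BNIP3L, PINK1, MAP1LC3B and ATG14.

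Several of these genes shared a dependence on the replicate number. Relative to replicates 1 and 2 of the same condition, replicate 3 was lower for BNIP3 (log2 ratio of -0.46 in normoxia and -0.54 in hypoxia), BNIP3L (-0.61 and -0.21), WIPI1 (-0.42 and -0.25), ATG14 (-0.26 and -0.41) and MAP1LC3B (-0.19 and -0.36). It was higher for ULK1 (0.21 and 0.19) and PINK1 (0.04 and 0.14). SQSTM1 (0.18 and -0.26), FUNDC1 (-0.14 and 0.11) and GABARAPL1 (0.07 and -0.11) differed in sign between the conditions. For BNIP3, the standard error of the log2-fold change went from 0.19 to 0.06 when the replicate number was a block, and for WIPI1 from 0.15 to 0.06.

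The order of the levels changed between the conditions. In normoxia, SQSTM1 was the most abundant of the 10 genes per length (76.7 ± 5.61 RPKM, SD, n = 3), followed by WIPI1 (46.0 ± 8.84), MAP1LC3B (43.4 ± 3.52), BNIP3 (31.3 ± 5.74), FUNDC1 (23.4 ± 1.35), BNIP3L (17.7 ± 4.07), ULK1 (15.3 ± 1.34), GABARAPL1 (14.4 ± 0.571), ATG14 (5.75 ± 0.580) and PINK1 (5.09 ± 0.181). Among neighbours in that order, the libraries of WIPI1 and MAP1LC3B, of BNIP3L, ULK1 and GABARAPL1, and of ATG14 and PINK1 overlapped. In hypoxia, BNIP3 was first (173 ± 34.4 RPKM), ahead of SQSTM1 (94.5 ± 10.9), MAP1LC3B (82.4 ± 11.6) and BNIP3L (72.6 ± 5.97), of which SQSTM1 overlapped MAP1LC3B and MAP1LC3B overlapped BNIP3L. WIPI1 (22.8 ± 2.48) came next, clear of BNIP3L and of FUNDC1 (17.9 ± 1.02). Among tested genes, BNIP3 went from the 83.2 to the 98.4 percentile of RPKM, and BNIP3L from the 71.6 to the 95.2 percentile. These levels use the union of all counted exons as the length, which can exceed the length of the transcript in use.

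**Figure D3:**
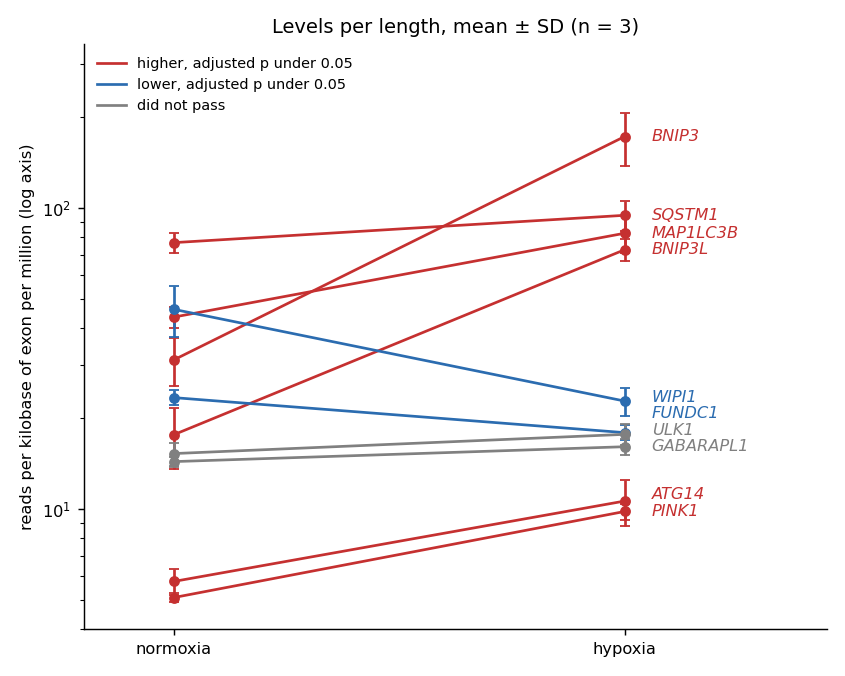
Mean RPKM ± SD of 3 libraries for each gene in normoxia and hypoxia on a log axis, with lines joining the conditions and coloured by call. BNIP3 moves from the fourth place (31.3 RPKM) to the first (173 RPKM), and WIPI1 from the second (46.0 RPKM) to the fifth (22.8 RPKM).

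Ratios of related genes within a library do not depend on how libraries are scaled, and 6 of them were compared with an exact two-sided permutation test over samples. With 3 libraries against 3, the exact test cannot go below p = 0.1, or 0.12 after Benjamini-Hochberg adjustment here, so no ratio could pass 0.05. The intervals below come from a t distribution with pooled variance over unpaired libraries, not from the exact test. An interval that leaves out 0 is therefore not a call. The log2 ratio of BNIP3 to BNIP3L per length was 0.81, 0.76 and 0.94 in normoxia and 1.33, 1.34 and 1.01 in hypoxia. The groups did not overlap, the difference of the means was 0.39 (95% interval from 0.06 to 0.73, exact permutation p = 0.1, adjusted 0.12), and within the pair numbered 3 the ratio differed by only 0.07. The ratio of GABARAPL1 to MAP1LC3B fell by 0.75 on the log2 scale on average (95% interval from -1.10 to -0.41), in every pair by between 0.71 and 0.79, with an exact permutation p of 0.1 (adjusted 0.12). WIPI1 to its paralogue WIPI2 differed by -1.05 (interval from -1.70 to -0.41), as WIPI2 itself did not pass the test (log2-fold change of 0.05, adjusted p = 0.571). FUNDC1 to FUNDC2 differed by -0.38 (interval from -0.75 to -0.02), and GABARAPL1 to GABARAPL2 by 0.34 (interval from 0.11 to 0.56), each with the groups apart and an exact permutation p of 0.1. For ULK1 to ULK2 the groups overlapped (difference of -0.05, interval from -0.47 to 0.37, exact permutation p = 0.9).

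**Figure D4:**
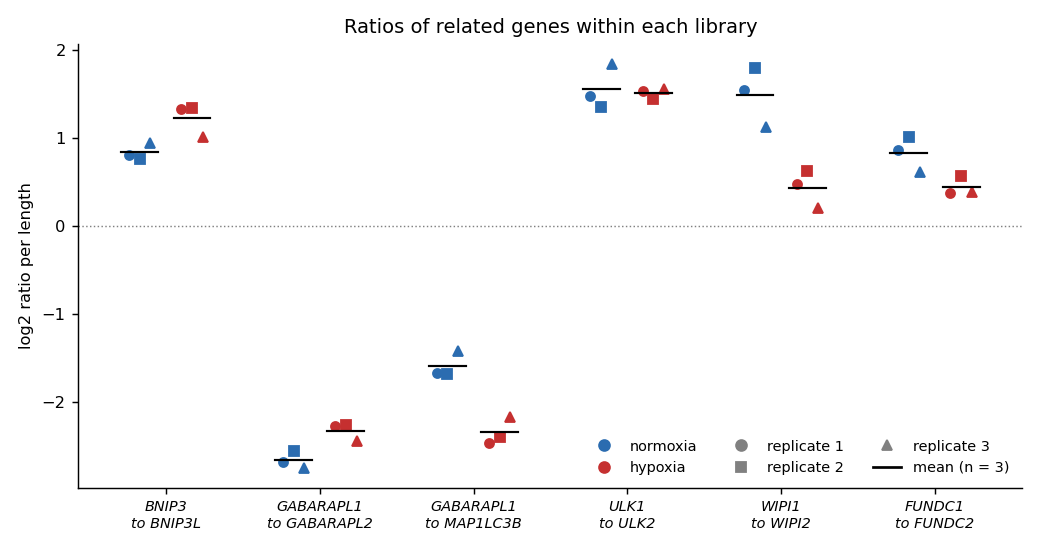
Log2 ratio per length of 6 pairs of related genes in each library, with normoxia in blue, hypoxia in red, a symbol for each replicate number and a line at the mean of 3 libraries. The groups are apart for every pair but ULK1 to ULK2, and the widest gap is that of WIPI1 to WIPI2 (-1.05).

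The rest of the pathway was described with 87 other genes in 9 roles, of which 86 were tested. Of these, 27 rose, 26 fell and 33 did not pass, against 30.4% higher and 29.1% lower among all tested genes, with medians of 0.02 and 0.03 on the log2 scale. The fit with a replicate block gave 33 higher and 32 lower, against 36.6% and 35.2% of all tested genes. With upper-quartile factors, 35 were higher and 14 lower, against 5972 and 3285 of all tested genes. The count of higher genes was 15 without normoxia replicate 1, 17 without hypoxia replicate 1, 17 without hypoxia replicate 2, and 20 to 22 without any other single library, all below 27. Over all tested genes, it was 3961 without normoxia replicate 1, 3910 without hypoxia replicate 1 and 3933 without hypoxia replicate 2. It was 4541 to 4991 without any other single library, against 4765 with all libraries.

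Among partners of ULK1 and ATG14, changes went both ways. The background over all tested genes was 30.4% higher and 29.1% lower, or 36.6% and 35.2% with the block. With upper-quartile factors, it was 5972 higher and 3285 lower of 15657. Of 4 other genes of the ULK kinase complex, 2 rose and 1 fell (2 and 2 with the block). RB1CC1, a scaffold of the complex, rose (log2-fold change of 0.48, adjusted p = 0.0288) and ATG13, which links it to ULK1, fell (-0.34, adjusted p = 0.00393), a call lost with upper-quartile factors (-0.18, adjusted p = 0.0724). ULK2 rose by 0.26 (adjusted p = 0.0492), a call lost without both libraries numbered 3 (adjusted p = 0.0753). Of 7 other genes of the lipid kinase complex and its regulators, 1 rose and 3 fell (2 and 4 with the block, 2 and 1 with upper-quartile factors). The catalytic subunit PIK3C3 rose from 26.4 ± 0.321 to 33.4 ± 3.73 CPM (0.34, adjusted p = 0.0207), whereas the scaffold PIK3R4 fell from 70.4 ± 2.51 to 38.9 ± 0.111 CPM (-0.86, adjusted p = 9.82e-05), opposite to ATG14. Of 10 genes that bind PI3P or supply membrane, 5 rose and 1 fell (6 and 2 with the block), WIPI1 not included. The lipid scramblase gene ATG9B rose most (2.68, adjusted p = 2.52e-04), from 1.25 ± 0.466 to 8.12 ± 1.49 CPM. It had only 58, 58 and 22 counts in the normoxia libraries. Its average reached the 100 counts required for naming only through the hypoxia libraries (339, 346 and 596 counts). The lipid transfer gene ATG2A fell (-0.92, adjusted p = 0.00399).

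Of 11 genes that attach ATG8 proteins to membranes, 3 rose and 4 fell. As a background, 30.4% of all tested genes were higher and 29.1% lower, or 36.6% and 35.2% with the block. The largest fall was that of ATG4D, a protease that processes ATG8 proteins (-0.85, adjusted p = 0.00252), and the largest rise that of ATG16L2 (0.45, adjusted p = 0.0462), which was lost without both libraries numbered 3 (0.22, adjusted p = 0.0920). Of 4 other tested ATG8 genes, 1 rose, while the block gave 2 higher and 1 lower. GABARAPL2 differed by -0.18 (adjusted p = 0.115), which passed with the block (adjusted p = 0.0312). MAP1LC3A rose by 2.25 (adjusted p = 0.00580) but from only 11 to 27 counts per normoxia library, and it was named after its values were seen, having fewer than 100 counts on average. Of 9 cargo receptor genes besides SQSTM1, 3 rose and 1 fell. OPTN, a receptor for ubiquitin-marked mitochondria, rose from 69.9 ± 5.87 to 149 ± 11.9 CPM (1.10, adjusted p = 1.09e-04), and TEX264, a receptor for the endoplasmic reticulum, fell (-0.42, adjusted p = 0.0253, and -0.27 with adjusted p = 0.0822 under upper-quartile scaling).

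Of 17 other genes of mitophagy receptors and the PINK1 pathway, 1 rose, 9 fell and 7 did not pass, with a median log2-fold change of -0.30. Among all tested genes, 30.4% were higher and 29.1% lower, with a median of 0.03. With upper-quartile factors, 2 were higher and 6 lower, against 5972 and 3285 of all 15657 tested genes. PGAM5, a mitochondrial phosphatase that acts on FUNDC1, fell most, from 130 ± 18.3 to 60.1 ± 3.74 CPM (-1.11, adjusted p = 2.06e-04). BCL2L13, another outer membrane receptor, rose by 0.37 (adjusted p = 0.00429). Chosen after their values were seen, the mitochondrial fusion genes MFN2 (-0.82, adjusted p = 5.08e-04) and MFN1 (-0.51, adjusted p = 6.23e-04) and PARL, the protease that cleaves PINK1 (-0.66, adjusted p = 4.50e-04), fell, also with upper-quartile factors.

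At the lysosomal end, 2 of 15 genes of autophagosome fusion and the lysosome rose, 7 fell and 6 did not pass. This count depended on scaling (5 higher and 2 lower with upper-quartile factors) and on the block (4 higher and 9 lower). The background over all tested genes was 30.4% higher and 29.1% lower, or 36.6% and 35.2% with the block. With upper-quartile factors, it was 5972 higher and 3285 lower of 15657. The cathepsin gene CTSL rose from 10.4 ± 0.740 to 24.3 ± 2.30 CPM (1.23, adjusted p = 1.42e-04), and the lysosomal calcium channel gene MCOLN1 fell (-0.80, adjusted p = 0.00427). All 9 listed genes of transcription factors that act on autophagy or lysosome genes were higher in hypoxia, under every scaling tried, with a median log2-fold change of 0.69. Of all tested genes, 30.4% were higher. The list was chosen with earlier results of these data known. Whether these factors raised or lowered their target genes was not tested. The changes of the 9 genes ranged from 0.24 for NFE2L2 to 2.71 for DDIT3, the stress factor CHOP, which rose from 13.1 ± 3.22 to 85.3 ± 15.7 CPM (adjusted p = 7.04e-05). TFEB, the factor known for inducing lysosome genes, rose by 1.44 (adjusted p = 5.59e-04), from 3.29 ± 0.694 to 8.98 ± 1.01 CPM, and was named after its value was seen.

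**Figure D5:**
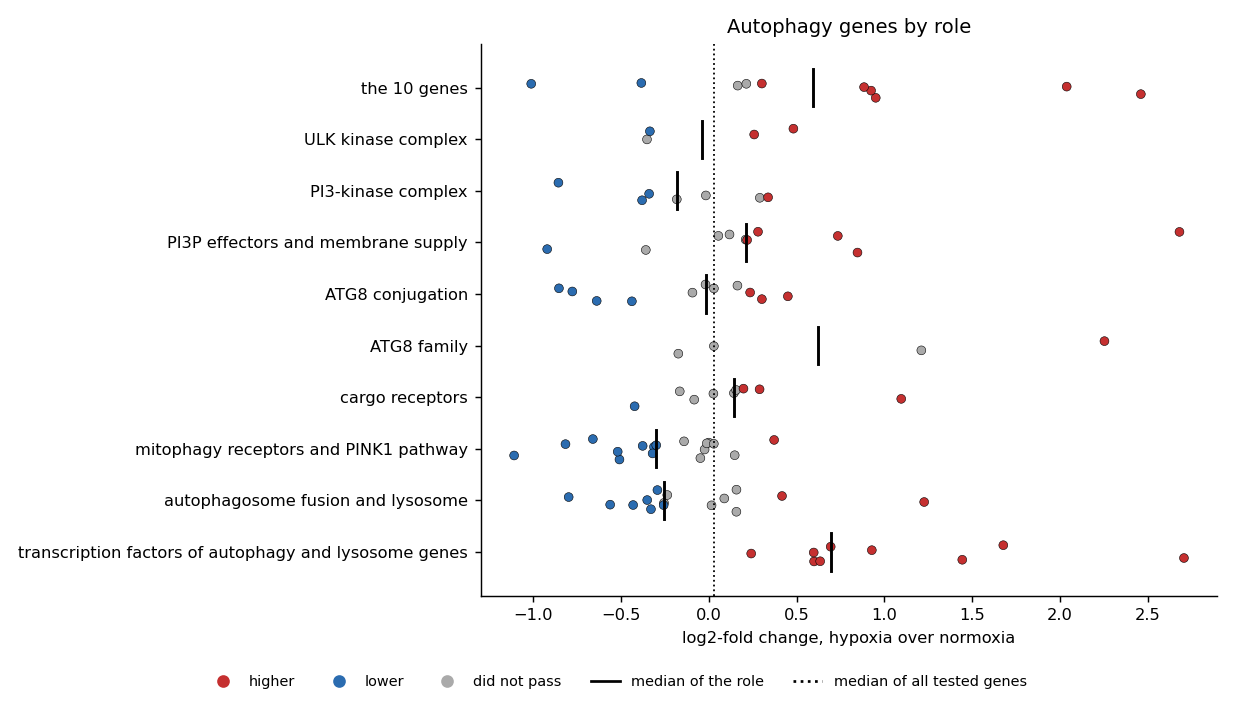
Log2-fold change (hypoxia over normoxia) of the 10 genes and of 86 other tested autophagy genes by role, coloured by call, with the median of each role as a black bar and the median of all tested genes (0.03) as a dotted line. All 9 transcription factor genes are higher, whereas 9 of 17 genes of the mitophagy receptor and PINK1 role and 7 of 15 genes of the lysosomal role are lower. Of all tested genes, 30.4% are higher and 29.1% lower.

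Finally, genes whose CPM followed BNIP3 most closely over the 6 libraries were sought among 12664 tested genes that averaged 100 counts or more. They were GOLGA7B, OSCAR and MAP3K21, with Pearson r of 0.9995, 0.9993 and 0.9991 on the log2 scale, and those closest to BNIP3L were OSMR, NUTM2D and STARD9, with r of 0.9995, 0.9990 and 0.9988. Their own log2-fold changes ranged from 0.91 for OSMR to 2.46 for OSCAR, so a close pattern did not mean a change of like size. The libraries fall into the 2 conditions, so the points are not spread evenly, and r carries no p.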

How the data were processed

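The authors trimmed adapters (Skewer), aligned reads with STAR 2.5.2a to hg19, also called GRCh37, and deposited unnormalised read counts per RefSeq gene from featureCounts 1.5.1, 1 file per library (versions per the labels' processing notes). Whether counting used strand, and how it handled multi-mapping reads, is not given in the sources used here, which bears on overlapping and near-identical genes.

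Here, counts were analysed with R 4.3.3 and edgeR 4.0.16. Genes were kept by filterByExpr (minimum count of 10, minimum total count of 15), normalised by TMM and tested with the quasi-likelihood test on all 6 libraries, fitting condition alone, and p-values were adjusted by Benjamini-Hochberg over all 15657 tested genes at 0.05. The exact test in edgeR, named in the study's methods, and DESeq2 1.42.0 were alternatives. RPKM divides TMM-normalised CPM by the length of the counted exons. Ratios used a pseudocount of 0.5 counts. Permutation tests used scipy 1.17.1. Near-copies were found by megablast of the counted exons against GENCODE transcripts (at least 90% identity over at least 100 bases). Confidence intervals are at 95%, and those of the ratios come from an unpaired t distribution with pooled variance.

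Deviations from the condition means were positively correlated between libraries of equal number (r across genes of 0.34 to 0.58), so the number was also used as a block. They were also positively correlated between normoxia replicate 1 and hypoxia replicate 2 (0.24) and between normoxia replicate 2 and hypoxia replicate 1 (0.28). Pairs of replicate 3 with another number were at -0.47 to -0.38, so much of the pattern set replicate 3 apart from replicates 1 and 2.

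The 10 genes and all lists were chosen with earlier results of these data known. Besides the 10 genes and their paralogues, the named genes are, in each role, the called gene with the largest rise and the largest fall among genes averaging 100 counts or more, the 3 closest patterns to BNIP3 and to BNIP3L, and marker genes. A gene is not reported here. Others are marked as named after their values were seen, and enumerated lists name their ends.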

Additional observations from a re-analysis of the deposited data

How the results depend on the processing

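Of 14 alternative settings (edgeR's exact test, DESeq2, RLE and upper-quartile factors, no filter on low counts, the replicate block, each library left out, both libraries numbered 3 left out, and libraries thinned to the smallest total), none changed the sign of a log2-fold change of the 10 genes. The calls of BNIP3, BNIP3L, PINK1, MAP1LC3B, ATG14 and WIPI1 held in all of them. Upper-quartile factors ended the call of FUNDC1 (-0.23, adjusted p = 0.0744) and brought those of GABARAPL1 (0.32) and ULK1 (0.37) past the threshold. They left 1 of the 10 genes lower, and gave 35 higher and 14 lower among the other genes of the pathway, against 5972 and 3285 of all tested genes. The replicate block brought ULK1 past the threshold (0.21) and changed no other call among the 10 genes. Leaving out both libraries numbered 3 did so for ULK1 (0.23) and GABARAPL1 (0.23). With 1 library left out, the log2-fold change ranged from 0.21 to 0.38 for SQSTM1, which lost its call without any one of the libraries numbered 1 and 2, and from 0.14 to 0.28 for ULK1. In these settings, the rest of the pathway had 15 to 22 genes higher and 20 to 29 lower. Over all tested genes, 3910 to 4991 were higher and 3561 to 4924 lower. The difference of the ULK1 to ULK2 ratio ranged from -0.15 to 0.092, and was positive (0.092) without normoxia replicate 3. The sign-flip test on pairs of ratios cannot go below 0.25. At an adjusted p of 0.01, 14 other genes of the pathway were higher and 18 lower, against 3359 and 3157 of all 15657 tested genes. Where a change of 1 or more on the log2 scale was also required, 2 of the 10 genes were higher and 1 lower, 7 and 1 of the other pathway genes, and 2373 and 768 of all tested genes. For the remaining changes the cause was not tested. Each of the 10 genes had at least 427 counts in each library. With libraries thinned to the smallest total, 6 of them were higher and 2 lower, the same counts as without thinning. Other effects of depth were not tested.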
